A study of Mus musculus with 4 samples.

Results

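Genes listed under the signalling complex at the dendritic tips of ON bipolar cells were followed through a long-read isoform table of the mouse retina. Whether each listed gene is a component of the complex was not tested. The members were the 10 genes Grm6, Trpm1, Gpr179, Nyx, Rgs7, Rgs11, Gnao1, Gng13, Pcp2 and Gsg1, taken by name from 13452 Ensembl genes in the table, and all 10 were listed. They accounted for 40 of 44325 isoforms. The table came from 4 single-cell libraries. The animals were wild-type males of the inbred strain C57BL6/J. Of these, 2 had no enrichment (1 at postnatal day 40, the other with no stated age), 1 was a CD73 enrichment at postnatal week 8 and 1 a CD90.2 enrichment at postnatal month 4. The labels' protocols describe magnetic removal of CD73-positive cells, CD73 being a photoreceptor surface protein, and magnetic capture of cells carrying CD90.2, a neuronal surface protein. Single-cell cDNA was sequenced as long nanopore reads.

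The deposited counts had 6 columns, 1 for each of bipolar cells, cones, rods, amacrine cells, retinal ganglion cells and Müller glia, and no column named a library. Each class was therefore 1 pooled sample without replicates, and no test between classes was possible. Column totals ranged from 3509890 counts in ganglion cells to 55437340 in rods, with 29010038 in bipolar cells. Levels are given as counts per 1000000 counts of the column (CPM), with exact 95% Poisson intervals, and shares with exact Clopper-Pearson 95% intervals. Both describe counting error alone, and are too narrow where reads of the same molecule were counted apart. A count of 0 allows a level of up to 3 counts, which was 0.0541 CPM for rods, 0.0622 for amacrine cells, 0.411 for cones, 0.489 for Müller glia and 0.855 for ganglion cells. In a pooled column, fewer expressing cells and less RNA per cell cannot be told apart. The bipolar column was also checked against markers that are not members. The bipolar markers Otx2, Cabp5, Trnp1, Lhx4, Gabrr1, Bhlhe23 and Samsn1 were highest there. The column's name does not separate ON from OFF cells.

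In darkness, photoreceptors release glutamate onto the metabotropic receptor mGluR6 of ON bipolar cells. The receptor activates the G protein Go, which keeps the cation channel TRPM1 closed, and when light lowers glutamate the channel opens and the cell depolarises. RGS7 and RGS11 speed the turning off of Go and are held at the dendritic tip by GPR179, and loss of GRM6, TRPM1, GPR179 or NYX causes congenital stationary night blindness.

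The isoform differences described below rest on a small number of alternative exons and starts. Their sequences are from GENCODE M21 transcripts on GRCm38, written 5′ to 3′ on the gene's strand. The exons of Rgs7 are shown because they give the encoded protein different C-terminal ends, and only their coding parts are printed, with the stop codon in capitals. The 54-nt exon (chr1:175076824-175076877, minus strand) holds no stop codon in its reading frame and is read on into the last exon.
Rgs7 54-nt exon: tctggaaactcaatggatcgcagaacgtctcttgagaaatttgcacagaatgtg
Rgs7 78-nt exon, chr1:175066641-175066694: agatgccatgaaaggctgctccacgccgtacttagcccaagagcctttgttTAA
Rgs7 81-nt exon, chr1:175076023-175076097: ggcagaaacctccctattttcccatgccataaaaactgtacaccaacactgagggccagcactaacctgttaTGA
Rgs7 last exon, chr1:175059744-175059794: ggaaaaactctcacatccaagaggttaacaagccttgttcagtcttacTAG

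The alternative ends of Pcp2 (minus strand) are shown for the same reason, again with the stop codon in capitals.
Pcp2 59-nt exon, chr8:3623731-3623754: tatttagctttgaactcaaaaTAA
Pcp2 last exon, chr8:3623439-3623558: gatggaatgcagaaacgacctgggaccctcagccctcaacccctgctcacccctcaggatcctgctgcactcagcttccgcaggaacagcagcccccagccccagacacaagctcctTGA

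The coding stretch of 123 nt in Gsg1 (chr6:135242051-135242173, minus strand) lies between 2 donor splice sites, and its first bases GT, in capitals, are the intronic GT of the shorter form.
Gsg1 123-nt stretch: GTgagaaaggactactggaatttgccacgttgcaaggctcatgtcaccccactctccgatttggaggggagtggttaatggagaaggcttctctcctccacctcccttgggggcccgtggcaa

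For Rgs11 (plus strand), exon 2 (chr17:26203296-26203392) was the exon left out in most amacrine counts, and the 4 bases in capitals at the start of exon 3 (chr17:26203462-26203512) are absent from a form that uses the next acceptor site.
Rgs11 exon 2: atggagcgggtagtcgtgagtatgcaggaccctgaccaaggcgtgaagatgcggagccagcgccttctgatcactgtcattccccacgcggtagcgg
Rgs11 exon 3: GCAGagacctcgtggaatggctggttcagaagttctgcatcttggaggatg

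Gng13 has 2 annotated starts 357 bases apart on chromosome 17. The 250 bases before each, from RefSeq on GRCm38.p6, are printed with CG dinucleotides in capitals, because the classes differed in the start they used.
Gng13 upstream start, chr17:25716922-25717171: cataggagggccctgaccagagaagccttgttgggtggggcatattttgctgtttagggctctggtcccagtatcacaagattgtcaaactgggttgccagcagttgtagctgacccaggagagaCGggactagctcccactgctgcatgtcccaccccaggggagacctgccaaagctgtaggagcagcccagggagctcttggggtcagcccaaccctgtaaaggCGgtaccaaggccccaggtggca
Gng13 downstream start, chr17:25717278-25717527: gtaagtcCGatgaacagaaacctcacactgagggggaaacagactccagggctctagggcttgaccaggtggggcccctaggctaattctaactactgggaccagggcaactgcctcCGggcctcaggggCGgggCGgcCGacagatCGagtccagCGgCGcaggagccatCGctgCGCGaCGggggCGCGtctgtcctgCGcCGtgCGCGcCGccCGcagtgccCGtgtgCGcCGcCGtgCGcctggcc

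Across the members, 9 of 10 had their highest CPM in bipolar cells, where 14.1% of 13393 genes with at least 10 counts did. Rgs7 was the exception by measured level. Bipolar and ganglion cells did not differ beyond counting error in Rgs7 (ratio 0.869, 0.645 to 1.19) or in Gnao1 (1.34, 0.899 to 2.06). Which of these classes is highest is therefore not established for either gene. In 8 of 10 members, bipolar cells held at least 80% of the CPM summed over the 6 classes, a rule of size that 1.65% of genes met. The members below that share were Rgs7 (27.2%) and Gnao1 (46.8%). Both counts include Gpr179, on 10 bipolar counts, although the 3-count limits of cones, Müller glia and ganglion cells exceed its bipolar level. Its place in either count is therefore not established. The shares take classes with 0 counts as 0 CPM, which also matters for Trpm1, on 118 bipolar counts. The median share in bipolar cells was 90.7% over the members and 13.4% over all genes. The members together made up 1044880 counts, 3.60% of the bipolar column, and Pcp2 alone had 677439 of them.

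**Figure D1:**
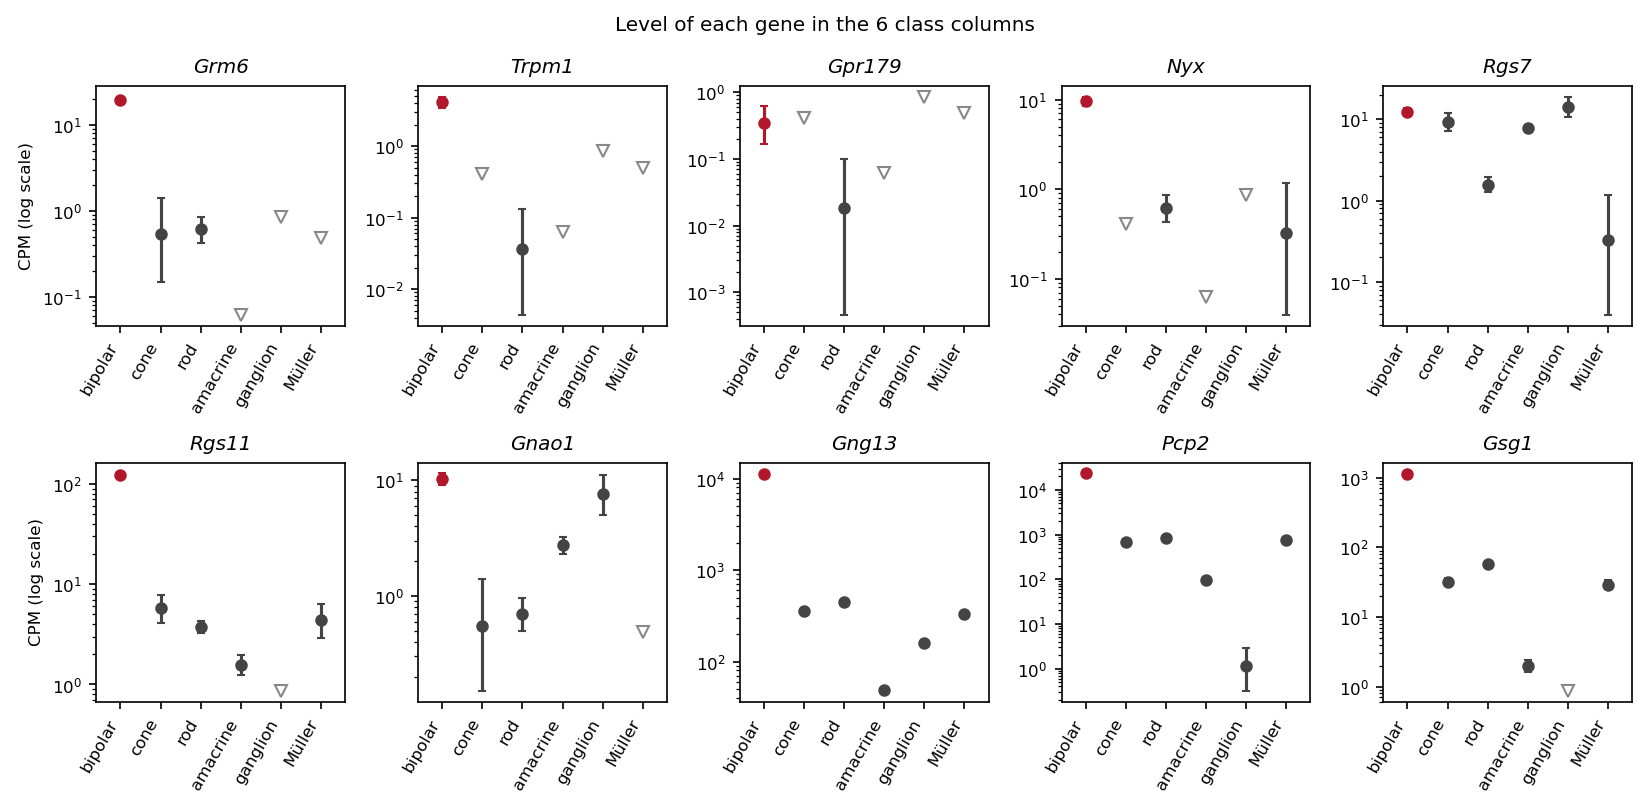
Level of each member (CPM, log axis) in the 6 class columns, each 1 pooled sample; bars are exact 95% Poisson intervals and open triangles mark the 3-count limit of a class at 0. Bipolar cells, in red, have the highest measured level in 9 panels, and in the Rgs7 panel ganglion cells (14.2 CPM) stand above bipolar cells (12.4 CPM). In the Gpr179 panel the triangles of cones, ganglion cells and Müller glia stand above the bipolar point.

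Among the receptor and channel genes, Grm6, which encodes mGluR6 itself (ENSMUSG00000000617.14, chr11:50850685-50866208, plus strand), had 569 counts in bipolar cells, 34 in rods, 4 in cones and 0 in amacrine cells, ganglion cells and Müller glia. Its level in bipolar cells was 19.6 CPM (18.0 to 21.3), which was 32-fold that in rods (22.6 to 46.6). The rod level of 0.613 CPM and the cone level of 0.547 CPM did not differ beyond their intervals. Trpm1, the cation channel (ENSMUSG00000030523.18, chr7:64153835-64269775, plus strand), had 118 counts in bipolar cells, 2 in rods and 0 in the other 4 classes. Its bipolar level was 4.07 CPM (3.37 to 4.87), and the ratio to rods was 113, with an interval of 30.5 to 942 because of the 2 rod counts. With the position-named loci over its exons added, that ratio was 39. Gpr179, the orphan receptor that anchors the RGS proteins (ENSMUSG00000070337.4, chr11:97332109-97352077, minus strand), was close to the limit of detection. It had 10 counts in bipolar cells (0.345 CPM, 0.165 to 0.634), 1 in rods and 0 elsewhere, and the limits of cones, Müller glia and ganglion cells are above its bipolar level. Its ratio to rods was 19.1 (2.72 to 829), and 87.9 with a position-named locus of unknown strand inside the gene added. That locus has no model, and models were deposited only for isoforms with rod counts. It therefore lacks rod counts by selection, and adding it could only raise the ratio. Nyx, the leucine-rich repeat protein nyctalopin (ENSMUSG00000051228.5, chrX:13466110-13489313, plus strand), had 276 counts in bipolar cells, 34 in rods, 2 in Müller glia and 0 in cones, amacrine cells and ganglion cells. Its bipolar level of 9.51 CPM (8.42 to 10.7) was 15.5-fold that in rods (10.8 to 22.9).

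The 2 RGS proteins had unlike profiles. Rgs11 (ENSMUSG00000024186.15, chr17:26202951-26211324, plus strand) had 3577 counts in bipolar cells, 209 in rods, 42 in cones, 76 in amacrine cells, 27 in Müller glia and 0 in ganglion cells. Its 123 CPM (119 to 127) in bipolar cells was 21.5-fold the cone level (15.8 to 29.8), and the levels of cones (5.75 CPM) and Müller glia (4.4 CPM) had overlapping intervals, as did those of Müller glia and rods (3.77 CPM). Rgs7 (ENSMUSG00000026527.13, chr1:175059087-175492500, minus strand) had 373 counts in amacrine cells, 359 in bipolar cells, 87 in rods, 68 in cones, 50 in ganglion cells and 2 in Müller glia. In CPM the order was ganglion cells 14.2 (10.6 to 18.8), bipolar cells 12.4 (11.1 to 13.7), cones 9.31 (7.23 to 11.8), amacrine cells 7.73 (6.97 to 8.56), rods 1.57 (1.26 to 1.94) and Müller glia 0.326 (0.0395 to 1.18). Ganglion and bipolar cells did not differ beyond counting error, with a ratio of bipolar to ganglion cells of 0.869 (0.645 to 1.19). The order of these classes turned when a position-named locus inside Rgs7, of unknown strand and with 189 bipolar counts, was added, which gave 18.9 CPM in bipolar cells and a ratio of 1.33. With Ensembl transcripts alone the ratio of bipolar cells to the highest other class was 0.363. The level in bipolar cells was 1.60-fold that in amacrine cells (1.38 to 1.86) and 1.33-fold that in cones (1.02 to 1.75).

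Of the G protein genes, Gnao1, which encodes the alpha subunit of Go (ENSMUSG00000031748.16, chr8:93809966-93969388, plus strand), was shared between bipolar and ganglion cells. It had 298 counts in bipolar cells, 132 in amacrine cells, 39 in rods, 27 in ganglion cells, 4 in cones and 0 in Müller glia. The levels of 10.3 CPM (9.14 to 11.5) in bipolar cells and 7.69 CPM (5.07 to 11.2) in ganglion cells overlapped, with a ratio of 1.34 (0.899 to 2.06). Amacrine cells were lower at 2.74 CPM, and the bipolar level was 3.75-fold theirs (3.05 to 4.64). These values leave out a separate single-exon locus, named by position only, that lies inside the last exon of Gnao1. With its counts added the ratio of bipolar cells to the next class, then amacrine cells, became 7.62. Gng13, a G protein gamma subunit that pairs with the beta subunit encoded by Gnb3 (ENSMUSG00000025739.13, chr17:25717171-25719406, plus strand), had 329145 counts in bipolar cells, 24998 in rods, 2611 in cones, 2378 in amacrine cells, 2021 in Müller glia and 558 in ganglion cells. Its bipolar level of 11346 CPM was 25.2-fold the rod level of 451 CPM (24.8 to 25.5). Cones followed with 357 CPM and Müller glia with 330 CPM, whose intervals overlapped, and ganglion cells had 159 CPM and amacrine cells 49.3 CPM.

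Pcp2, a modulator of Go-family alpha subunits known from Purkinje and rod bipolar cells (ENSMUSG00000004630.18, chr8:3623371-3625545, minus strand), had 677439 counts in bipolar cells, 46121 in rods, 4892 in cones, 4705 in amacrine cells, 4565 in Müller glia and 4 in ganglion cells. Its level was 23352 CPM in bipolar cells, 28.1-fold that in rods (27.8 to 28.3), and 1.14 CPM in ganglion cells. The 6 levels had intervals that did not overlap. Gsg1 (ENSMUSG00000030206.13, chr6:135237326-135254351, minus strand) had 33089 counts in bipolar cells, 3178 in rods, 229 in cones, 95 in amacrine cells, 179 in Müller glia and 0 in ganglion cells. Its bipolar level of 1141 CPM was 19.9-fold that in rods (19.2 to 20.6), and cones (31.3 CPM) and Müller glia (29.2 CPM) did not differ beyond their intervals.

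The levels of members outside bipolar cells were set beside those of the 7 bipolar markers, as a percentage of the bipolar CPM. In the rod column, members had 0.887% (Trpm1) to 12.7% (Rgs7), with a median of 4.50%, and the markers had 2.57% (Gabrr1) to 89.9% (Otx2), with a median of 4.18%. In cones the median was 2.83% over members and 6.35% over markers, of which Lhx4 was highest at 33.3%. The medians for Müller glia were 2.60% and 2.62%. In amacrine cells they were 0.295% and 0.423%, and among ganglion cells both were 0. What part of the members' counts outside the bipolar column belongs to those classes was not tested. Rgs7 had 62.5% of its bipolar level in amacrine cells, 115% in ganglion cells and 75.2% in cones, and Gnao1 had 26.6% in amacrine cells and 74.9% in ganglion cells. In amacrine and ganglion cells the highest measured value among the other members was 1.40%, for Gng13 in ganglion cells.

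**Figure D2:**
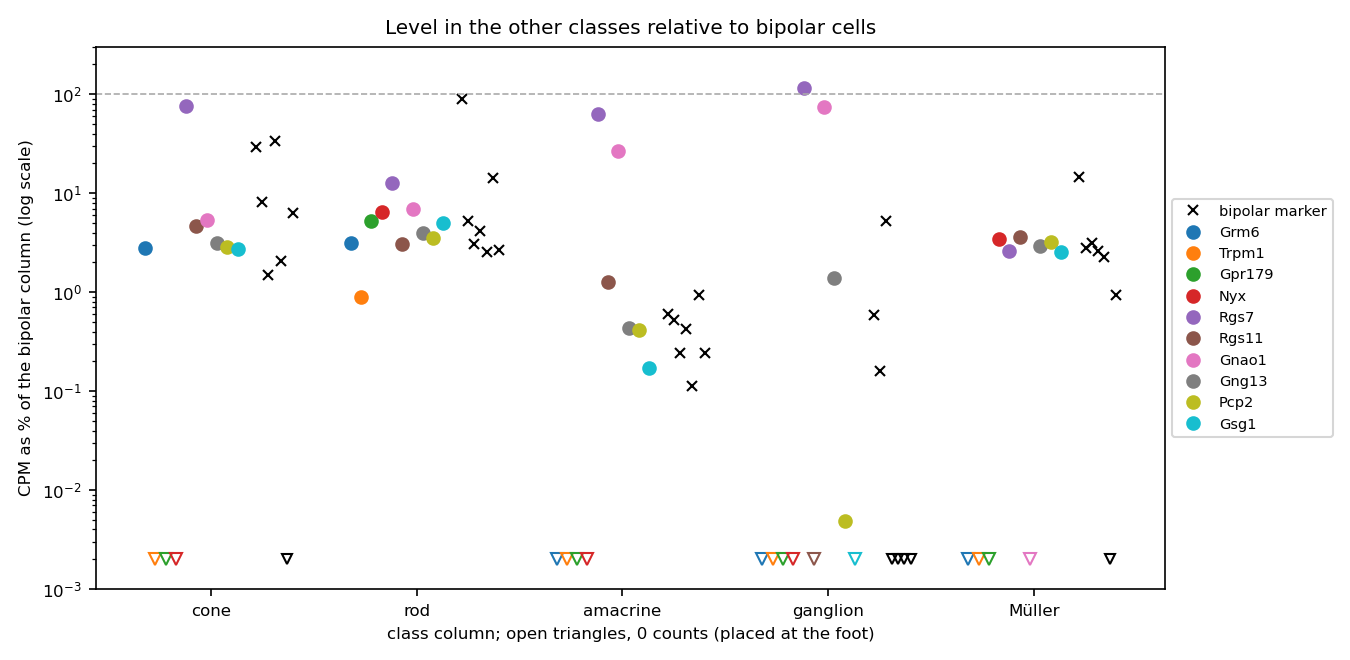
CPM in each of the other 5 class columns as a percentage of the CPM in bipolar cells (log axis) for the 10 members (coloured dots) and 7 bipolar markers (crosses), with open triangles at the foot for 0 counts. In the rod column all members have counts, with a median of 4.50%, while Rgs7 and Gnao1 stand apart from the other members in amacrine and ganglion cells.

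A list of 15 further genes held partners of the complex, but also photoreceptor genes and relatives of members. Of these, 12 were in the table and 0 were highest in bipolar cells, with a median bipolar share of 1.78%. The median describes this mixed list and not the complex. Gnb3, the beta subunit partner of Gng13, had 2717 CPM in bipolar cells and 4654 in cones, and bipolar cells held 35.8% of its summed CPM. Gnb5, the beta subunit that RGS7 and RGS11 require, had 428 CPM in rods, 271 in cones and 12.9 in bipolar cells. Gnb1, the rod transducin beta subunit, had 2015 CPM in rods and 42 in bipolar cells. Lrit3, a leucine-rich repeat protein needed for the assembly of the complex, was highest in cones with 8.07 CPM, and had 4.02 in rods and 0.207 in bipolar cells. Its relative Lrit1 had 31.3 CPM in cones, 27 in rods and 21.8 in bipolar cells. Egflam, the matrix protein pikachurin, had 5.61 CPM in cones, 5.07 in rods and 0.103 in bipolar cells. Elfn1, a photoreceptor adhesion protein that binds mGluR6, had 1.71 CPM in ganglion cells, on 6 counts, 1.12 in rods and 0 counts in bipolar cells. Dag1, dystroglycan, had 6.52 CPM in Müller glia, 3.97 in cones, 2.44 in rods and 2.34 in bipolar cells. The metabotropic receptor genes Grm7 and Grm8 were highest in amacrine cells, with 2.34 and 19.6 CPM there and 0.965 and 0.0689 in bipolar cells. Rgs9 and Gpr158 were highest in ganglion cells, with 15.7 and 7.69 CPM there and 0.276 and 0.620 in bipolar cells. Of 7 other ON bipolar genes, all 7 (Prkca, Isl1, Sebox, Car8, Tpbg, Vstm2b and Strip2) were highest in bipolar cells and 4 met the 80% rule, with a median share of 80.0%. Of 7 genes in the table that were listed as OFF bipolar, 4 (Grik1, Vsx1, Scgn and Lhx3) were highest in bipolar cells and the same 4 met the rule, with a median of 88.5%. The bipolar column cannot show whether a listed gene is limited to OFF cells. Fezf2 and Erbb4 were highest in amacrine cells and Irx6 in ganglion cells.

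The genes whose profile over the 6 classes lay nearest to each member were found among 9868 genes with at least 100 counts, by the total variation distance between shares of CPM, in percentage points. Nearest to Gsg1 were Scgn at 0.896 points, Cabp2 at 1.06 and Gabrr2 at 1.16. Pcp2 was nearest to Cabp2 at 1.09 points, Scgn and Gsg1, and Gng13 was nearest to Pcp2 at 1.78 points, Gsg1 and Otor. Rgs11 had Otor at 2.25 points, Tnnc1 and Pcp2, and Nyx had Cabp2 at 1.97 points, Gsg1 and Scgn. For 4 members (Gng13, Pcp2, Rgs11 and Nyx), another member was thus among the nearest genes. Grm6 was nearest to Lhx3 at 1.29 points, Lyve1 and Tmem132d. Trpm1 was nearest to Mypn at 1.21 points, Actc1 and Hamp2, and Gpr179, on 11 counts, to Dlgap2 at 1.40 points, Slc17a1 and Lyve1. The members with broader profiles had more distant neighbours, which were Syt4 at 4.65 points, Catsperd and Camk2b for Gnao1, and Ampd2 at 7.11 points, Eno2 and Plekha5 for Rgs7. The points of a profile share their libraries and columns, so the distances are a description.

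Of the 40 member isoforms, 15 carried an Ensembl transcript identifier and 25 did not. The unannotated part was 62.5% (45.8 to 77.3) of isoforms, next to 60.3% over all isoforms of Ensembl genes. By counts it was far smaller, at 1.25% of the members' bipolar counts (1.22 to 1.27) and 4.33% over all genes. The members' value is set mainly by Pcp2 (0%) and Gng13 (0.00608%), which hold most of these counts. By gene the unannotated part of bipolar counts was 100% for Gpr179 (10 counts), 94.9% for Trpm1, 73.3% for Rgs7, 36.4% for Gsg1, 14.0% for Rgs11 and 10.7% for Grm6. It was 0% for Nyx and Gnao1. A deposited transcript model existed for 27 of the 40, and 1 more had its structure in M21. Of 99 splice junctions in these models, 96 were in M21, and the other 3 belonged to Gng13, Trpm1 and Rgs7. Among the 28 isoforms with a structure, differences were taken against each gene's most abundant such isoform. They were alternative first exons (9 isoforms), skipped or included exons (7) and alternative last exons (6). Alternative 3′ splice sites (2), an alternative 5′ splice site (1) and a retained intron (1) also occurred. The reference isoforms of Grm6 and Trpm1 are partial, covering 18.6% and 29.4% of the longest coding sequence. Longer transcripts of these genes therefore count as having other first and last exons, and truncated models were not told apart from alternative ends.

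A dominant isoform switch was called where 2 classes, each holding 100 or more of the gene's counts, had different most abundant isoforms and the share of 1 of them differed by at least 50 percentage points. Of 5 members with 2 or more isoforms and enough counts, 1 switched, Gng13, and the same rule called 10.3% of 4739 genes. Its isoforms ENSMUST00000172002.7 and ENSMUST00000115108.3 differ in the first exon (chr17:25717171-25717277 and chr17:25717528-25717581). Both carry the same coding sequence of 201 nt, which starts in exon 2. The downstream start made up 481 of 558 counts in ganglion cells, 86.2% (83.1 to 89.0). In the other classes it was 21.7% in amacrine cells (20.1 to 23.5), 10.1% in cones (8.98 to 11.3), 6.65% in rods (6.34 to 6.96), 3.28% in bipolar cells (3.22 to 3.34) and 2.57% in Müller glia (1.93 to 3.36). Ganglion cells differed from every other class by 64.5 to 83.6 points. The intervals of bipolar cells and Müller glia overlapped, and those of the other classes did not overlap each other.

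In CPM the downstream form of Gng13 was 372 in bipolar cells and 137 in ganglion cells, so ganglion cells had 36.8% of the bipolar level of this form and 0.200% of that of the upstream form. In the same ganglion column Pcp2 had 0.00488% of its bipolar level and Gsg1 had 0 counts. Of the 7 bipolar markers, 4 were at 0 there, Otx2 had 1 count, Cabp5 had 3 and Trnp1 had 22, which was 5.29% of its bipolar level. Amacrine cells had 2.88% of the bipolar level of the downstream form and 0.352% of the upstream form. The gene's level in ganglion cells, 159 CPM, was 1.40% of that in bipolar cells, and with classes below 10% of the gene's highest CPM left out no switch was called. The 250 bases before the downstream start hold 25 CG dinucleotides and 69.2% G and C, and those before the upstream start hold 2 and 58.8%. Over 32851 RefSeq windows of the same length the median was 6 CG dinucleotides (quartiles 2 and 16). A Gng13 isoform with an exon at a distance upstream (start 25698691) had 20 counts in bipolar cells and 1 in rods.

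**Figure D3:**
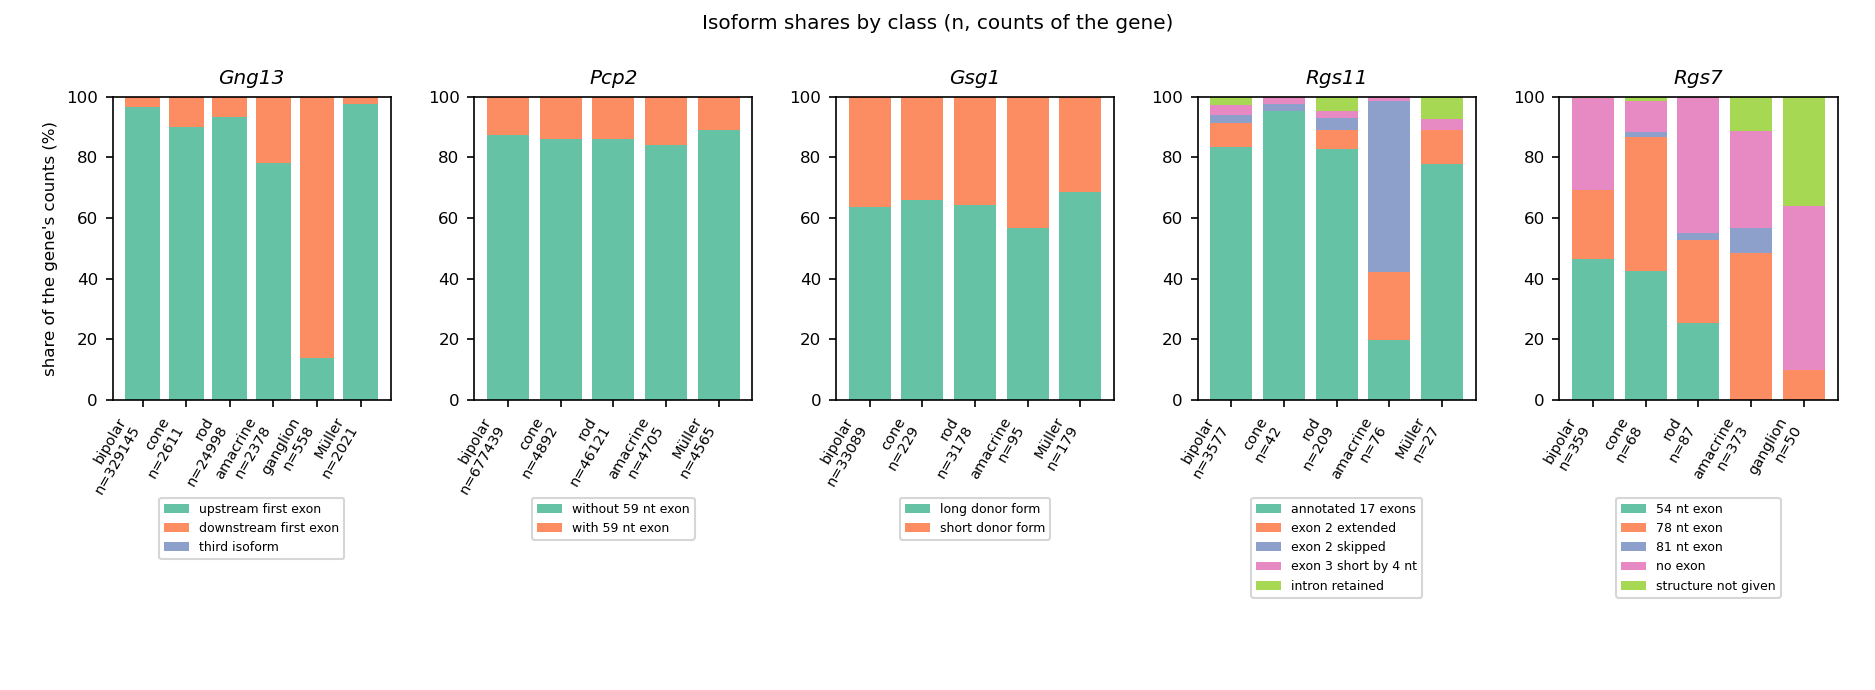
Share of each gene's counts (%) by isoform or, for Rgs7, by the exon before the last exon, shown where the gene had 20 counts or more; n is the gene's counts in that class. The downstream first exon of Gng13 fills 86.2% of the ganglion bar and 3.28% of the bipolar bar, Pcp2 and Gsg1 are alike across classes, and the exon 2 skipped form of Rgs11 fills 56.6% of the amacrine bar.

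Rgs7 varied at its 3′ end. Between the last exon, which all modelled isoforms share, and the exon upstream of it, isoforms held an exon of 54 nt, one of 78 nt, one of 81 nt, or none. The 54-nt exon adds 18 codons in frame and keeps the 16 codons and the stop codon of the last exon. The 78-nt exon ends the reading frame after 17 codons of its own, and the 81-nt exon after 24. In bipolar cells the 54-nt exon was in 167 of 359 counts, 46.5% (41.3 to 51.8), and in amacrine cells in 0 of 373, of which 42 belonged to isoforms without a known structure that could hold it. Cones had it in 29 of 68 counts, 42.6% (30.7 to 55.2), rods in 22 of 87, 25.3% (16.6 to 35.7), and ganglion cells in 0 of 50, of which 18 had no known structure. Bipolar cells and cones overlapped in this share, and both were above the 11.3% that amacrine cells would have if all counts without a structure held the exon (8.24 to 14.9).

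The 78-nt exon was in 48.5% of amacrine counts (43.3 to 53.7) and 44.1% of cone counts (32.1 to 56.7), whose intervals overlapped, and in 27.6% in rods (18.5 to 38.2), 22.8% in bipolar cells (18.6 to 27.5) and 10.0% in ganglion cells (3.33 to 21.8). The 81-nt exon was in 8.04% of amacrine counts (5.49 to 11.3) and in 0 of 359 bipolar counts, of which 2 had no known structure. No exon was present in 54% of ganglion counts (39.3 to 68.2), 44.8% of rod counts, 32.2% of amacrine counts, 30.1% of bipolar counts and 10.3% of cone counts. The forms behind this group differed. In amacrine, rod and ganglion cells they were mainly the annotated 17-exon transcript ENSMUST00000192227.5, with 31.1%, 40.2% and 54% of counts. In bipolar cells that transcript had 14 counts (3.90%), and a 3-exon form without an Ensembl identifier had 94 (26.2%, 21.7 to 31.1), joining the last exon to a far upstream exon by a junction outside M21 (chr1:175059795-175189176). Isoforms without a known structure held 36.0% of ganglion counts and 11.3% of amacrine counts. By single isoforms, the most abundant was an unannotated 18-exon form with the 54-nt exon in bipolar cells (123 counts, 34.3%) and ENSMUST00000194555.5, with the 78-nt exon, in amacrine cells (181 counts). That difference was below 50 points, and Rgs7 was called only between ganglion cells and either bipolar cells (50.1 points) or cones (54 points) when 20 counts were enough, a rule that called 1828 of 7317 genes (25%).

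Rgs11 differed between bipolar and amacrine cells near its 5′ end, on few amacrine counts. The 17-exon transcript ENSMUST00000025020.5 made up 83.4% of bipolar counts (82.1 to 84.6) and 15 of 76 amacrine counts, 19.7% (11.5 to 30.5). The form without the 97-nt exon 2 had 43 of 76 amacrine counts, 56.6% (44.7 to 67.9), and 89 of 3577 bipolar counts, 2.49% (2.00 to 3.05). In rods it had 3.83% (1.67 to 7.40) and in cones 1 of 42 counts. The length of exon 2 is no multiple of 3, so this form does not keep the annotated reading frame. A form in which exon 2 begins 82 bases earlier (chr17:26203214-26203295) had 7.97% of bipolar counts (7.10 to 8.90) and 22.4% of amacrine counts (13.6 to 33.4). The form that starts exon 3 at the next acceptor, 4 bases on, had 3.55% of bipolar counts (2.97 to 4.21). A form that keeps an intron, ENSMUST00000127594.1, had 2.63%. Amacrine cells differed from bipolar cells by 63.6 points, and the gene counts as switched only at the minimum of 20 counts.

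Pcp2 and Gsg1 had nearly constant isoform shares. The Pcp2 transcript with the 59-nt exon, ENSMUST00000144977.1, ends its coding sequence after 7 codons of that exon in place of the 39 codons of the last exon in ENSMUST00000136105.7. Its share was 12.6% in bipolar cells (12.6 to 12.7), 14.0% in rods (13.6 to 14.3), 14.0% in cones (13 to 15.0), 16% in amacrine cells (15.0 to 17.1) and 10.9% in Müller glia (10.0 to 11.9). The bipolar interval lay apart from the others, but by less than 4 points. Gsg1 was listed with the annotated ENSMUST00000087729.11 and an unannotated form that uses the upstream donor and lacks the 123-nt stretch, which is 41 codons in frame. The shorter form had 36.4% in bipolar cells (35.9 to 36.9), 35.7% in rods (34.1 to 37.4), 34.1% in cones (27.9 to 40.6), 31.3% in Müller glia (24.6 to 38.6) and 41 of 95 counts, 43.2% (33.0 to 53.7), in amacrine cells. All 5 intervals overlapped. The shorter donor is in M21 in ENSMUST00000111909.7, which has another first exon.

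For 4 members, most bipolar counts were not on isoforms shown to hold a complete annotated coding sequence. The share of all genes for which this holds was not computed, so it cannot be read as particular to the members. Complete annotated coding sequences were held by all bipolar counts of Nyx, Gnao1, Gng13, Pcp2 and Gsg1, by 83.4% of those of Rgs11, 26.7% of Rgs7 (22.2 to 31.6), 6 of 118 of Trpm1, and 0 of 569 of Grm6 and 0 of 10 of Gpr179. In Rgs7 the low share includes the 54-nt forms, since M21 gives no transcript with that exon a start codon. Grm6 was represented by the 2-exon processed transcript ENSMUST00000156890.7, with 481 of 569 bipolar counts (84.5%, 81.3 to 87.4). Its model ends at 50851765 and covers 18.6% of the coding sequence of 2613 nt. The 10-exon transcript ENSMUST00000000631.7 had 27 bipolar counts and its model covers 98.9% of the coding sequence, and an 8-exon and a 9-exon form had 31 and 30 bipolar counts. That 10-exon transcript has the annotated introns of a protein-coding transcript, and counts as incomplete only because its deposited model falls short of the whole coding sequence. Trpm1 was split into 13 isoforms, of which the most abundant had 20 counts. For 93 of its 118 bipolar counts no structure was given, and the 27-exon ENSMUST00000206277.1 with the whole coding sequence of 4884 nt had 6. The single Gpr179 isoform had 5 exons and covered 11.5% of a coding sequence of 6879 nt.

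**Figure D4:**
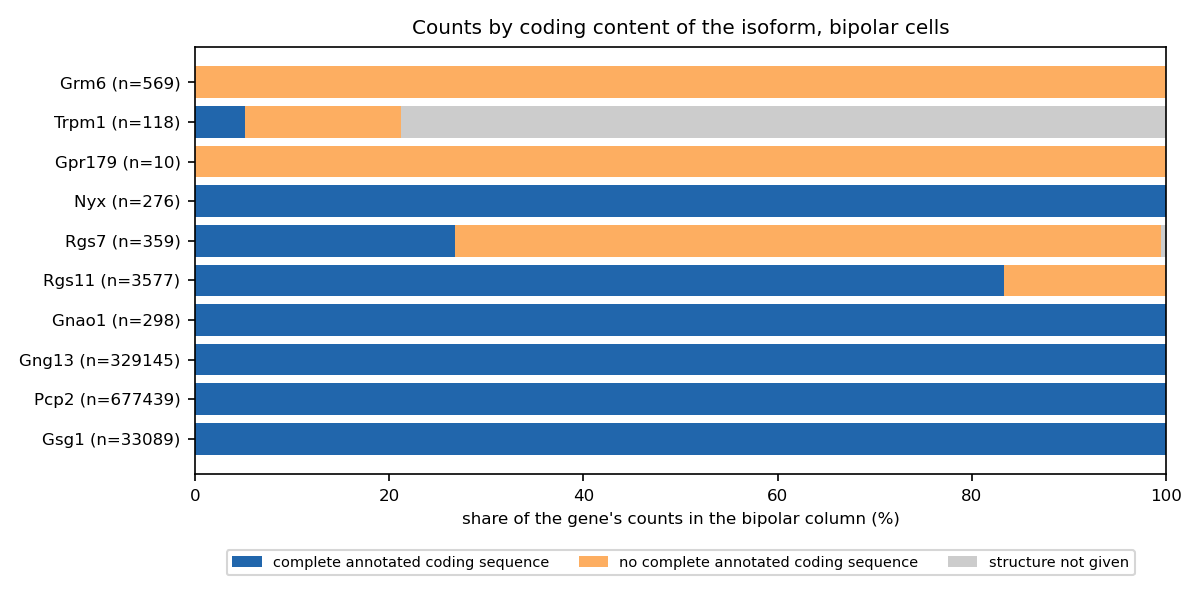
Share of each member's counts in the bipolar column (%) by whether the isoform holds a complete annotated coding sequence, does not, or has no structure given; n is the gene's bipolar counts. The bars of Nyx, Gnao1, Gng13, Pcp2 and Gsg1 are complete throughout, those of Grm6 and Gpr179 hold no form that is complete in its deposited model, and 78.8% of Trpm1 counts have no structure. The complete form of Trpm1 has its structure from M21.

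Nyx and Gnao1 had 1 isoform each. Nyx was listed as the 3-exon ENSMUST00000050434.5 with all 276 bipolar, 34 rod and 2 Müller glia counts. For Gnao1 the listed transcript was the 9-exon ENSMUST00000034198.14, with the whole coding sequence of 1062 nt, in every class with counts.

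A RefSeq window of the 250 bases before the start site was available for 9 of the 10 members. The windows nearest to the modelled 5′ ends lay within 202 bases of them for Grm6, Rgs7, Gnao1, Gng13, Pcp2 and Gsg1, and 5526 to 31892 bases away for Trpm1, Gpr179 and Nyx. They were searched on both strands for TAATCC, the core bound by the homeodomain factors CRX and OTX2, and for TAATTA, a general homeodomain core. The words overlap in their first 4 letters and cannot match at the same bases on 1 strand. None of the 9 windows held TAATCC, which 6.25% of 32851 windows held, and none held TAATTA, which 4.84% held. At such shares, finding none in 9 windows does not set the members apart. These were 1 window per member, chosen by its most counted isoform with a model. Trpm1, Gng13, Pcp2 and Gsg1 have 2, 2, 4 and 2 windows. For Trpm1 the model used is partial and starts at 64217351, and another model starts at 64153835. The CG count was 1 to 4 in the windows of Grm6, Trpm1, Gpr179, Nyx, the upstream start of Gng13, Pcp2 and Gsg1. It was 22 and 36 in those of Rgs7 and Gnao1, and 25 before the downstream start of Gng13. For Gnao1, Gsg1 and the upstream start of Gng13, the modelled 5′ end lay inside the window. It was 202, 81 and 1 bases before the RefSeq start, so these windows also hold sequence within the modelled transcript. Whether the CG count goes with the share in bipolar cells was not tested.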

How the data were processed

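Gene identifiers of the deposited table were matched to symbols through GENCODE M21. The table holds whole-number counts per isoform and cell class, which the authors deposited without normalization, and the transcript models name FLAIR, an isoform builder for long reads, per the file contents. The build is mm10 per the submitters' processing notes, and its coordinates were used with GRCm38. Read collapsing, cell typing, doublet removal, isoform filters and the libraries behind each column are not given in the sources used here. Counts were summed per gene and scaled to CPM, so a column's level depends on the rest of that column. Models were deposited only for isoforms with a rod count of at least 1, so other structures come from M21 where an Ensembl identifier allows it.

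Members and gene lists were chosen with earlier results of these data known. One listed bipolar marker is not reported here. Text names all members; their leading isoform in bipolar cells and in the class with most counts; isoforms of at least 5% in a class with at least 100 counts; the leading unannotated isoform; the partner, ON and OFF lists; and the 3 nearest profiles. No test was run. Scaling alternatives used edgeR 4.0.16 (R 4.3.3). Intervals used scipy 1.17.1 in Python 3.11.15. Opposite-strand genes Chtf18 (Gng13), Pet100 (Pcp2) and Fam234b (Gsg1) overlap members, with 86, 70 and 187 bipolar counts, and use of strand in the counting is not given in the sources used here.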

Additional observations from a re-analysis of the deposited data

Results flagged for a closer look

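The table also lists loci named by position only, and those that lay within members had counts in bipolar cells that the gene totals leave out. A single-exon model inside the noncoding part of the last Gnao1 exon (chr8:93968482-93969388, plus strand) had 3186 counts in bipolar cells, 628 in amacrine cells, 104 in rods, 44 in Müller glia, 28 in cones and 7 in ganglion cells. Its 110 CPM in bipolar cells (106 to 114) was 8.44-fold the amacrine level (7.74 to 9.21), and it had 10.7 times the counts listed under Gnao1 in bipolar cells, 4.76 times in amacrine cells and 0.259 times in ganglion cells. In Trpm1, a single-exon model over a coding exon (chr7:64223213-64226763) had 30 bipolar counts and 2 rod counts, and another over noncoding exon sequence (chr7:64220584-64223224) had 7. In Rgs7, a single-exon model (chr1:175078431-175079308) had 34 bipolar counts and 1 rod count. Loci without a model, and so without a strand, were named near position 175074000 within Rgs7 (189 bipolar, 13 amacrine and 6 cone counts), near 97347000 within Gpr179 (36 bipolar counts, beside 10 under the gene itself) and near 64153000, 64222000 and 64217000 within Trpm1 (15, 11 and 6 bipolar counts). Whether these reads come from the members' transcripts was not tested.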

How the results depend on the processing

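The number of members highest in bipolar cells and of those at 80% stayed within 1.5 times under trimmed mean and median-of-ratios scaling, a minimum of 10 counts, equal depth, Ensembl isoforms alone and added position-named loci, either the 4 with a model over member exons or the 5 without a model. With the latter, all 10 members were highest in bipolar cells, and the fold of Rgs7 over the next class turned from 0.869 to 1.33. At a share of 95% the second number was 2. Switched members numbered 3 of 6 comparable members at 20 counts (Gng13, Rgs11 and Rgs7), where the rule called 25% of 7317 genes. They numbered 2 at 25 points (Gng13 and Rgs7), and 0 once classes under 10% of the highest CPM were left out. No share over all genes is given here for the 95%, 25-point and 10% settings. Isoforms with at least 100 counts numbered 18, of which 33.3% were unannotated. The unannotated part of bipolar counts was 1.22% with that minimum and 3.54% without Pcp2. Of the other values, 122 kept within the tolerance used, their interval or, for counts, 1.5 times, and 7 moved beyond it. Within its wide interval, the fold of Trpm1 went from 113 to 39 and 37.8 with either kind of loci, and that of Gpr179 from 19.1 to 87.9. Loci without a model lack rod counts by selection, so the fold of Gpr179 over rods could only rise. The 7 values that moved were the folds over the next class of Gng13 (26.6), Pcp2 (25.5) and Gsg1 (21) under median of ratios, Pcp2 at equal depth (27.8), Rgs7 with Ensembl isoforms alone (0.363) and Gnao1 with the added locus (7.62), and the rod share of the main Grm6 isoform at equal depth (100%). The added loci were chosen after seeing the data. The cause of these changes was not tested. No paired analysis was possible because each cell class is a single pooled column, which also left no replicate to omit. Depth limits Gpr179, whose bipolar level is below the 3-count limit of 3 other classes.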
